A study of Saccharomyces cerevisiae with 24 samples.

Results

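The 37 genes described here are grouped as general amino acid synthesis under the budding yeast activator Gcn4. They are 36 genes for the synthesis of histidine, the aromatic amino acids, threonine and its precursors, serine, isoleucine, asparagine and proline, together with GCN4, which encodes the activator itself. A gene was included by symbol alone, if its symbol in the array's platform annotation was on this list. Whether Gcn4 regulates each of them was not tested. The list itself was drawn up with earlier results of these data known. All 37 genes were found with 1 probe each among 6388 gene probes. Expression was measured on 24 two-colour arrays in 9 groups of Saccharomyces cerevisiae strains. Each array carried 1 sample and a common wild type reference RNA. BY4742 is the named background. However, LYS2, a gene that BY4742 lacks, was well above wild type in the truncation and double mutants. MET17 levels also differed between groups, as given below.

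The groups differed in the C-terminal domain (CTD) of Rpb1, the largest subunit of RNA polymerase II (RNAPII), a tail of repeated heptapeptides, and in the presence of CDK8, the kinase of the Mediator complex, which is listed on the array under its other name SSN3. In the double mutants, a tail of 11 repeats (rpb1-CTD11 cdk8Δ) or 12 repeats (rpb1-CTD12 cdk8Δ) was combined with a CDK8 deletion made with a Kan marker. The single mutants kept 11 repeats in rpb1-CTD11, 12 repeats in rpb1-CTD12, 13 repeats in rpb1-CTD13 or 20 repeats in rpb1-CTD20, made by a stop codon followed by a NAT marker at the RPB1 locus. RPB1-CTDWT, labelled as holding repeats 1 to 26, kept the full-length tail with the NAT marker behind its own stop codon. The controls were wild type cultures, 1 group of which has 330 rpm in its label, whereas 230 rpm is the shaking speed in the protocol of all samples. Each group had 2 arrays, array a with the sample in Cy3 and array b with the sample in Cy5, except wild type with 8. According to the series' design text the 2 arrays of a strain came from independent cultures. Whether the wild type arrays, labelled k1 (4 arrays), k2 (2) and k3 (2), are separate cultures is not given, so their spread may be partly technical. Every culture grew to mid-log phase at 30 °C in synthetic complete medium with 2% glucose, so amino acids were supplied from outside.

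Gcn4 is a transcription activator that binds upstream of most amino acid synthesis genes and raises their expression when amino acids run short, a response called general amino acid control. Its amount is set mainly at translation, through short upstream open reading frames in the GCN4 mRNA that the kinase Gcn2 and the initiation factors eIF2 and eIF2B act on, and by rapid destruction of the protein. Cdk8 and Pho85 are kinases known to phosphorylate Gcn4 ahead of that destruction. An array measures GCN4 mRNA and not the protein.

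Values on each array are log2 ratios of sample over reference, given relative to the mean of the wild type arrays with the same dye, so that wild type averages 0. All 37 genes were above background on all 24 arrays, with a median signal across gene probes of 314 to 1184 per array and a local background of 42 to 71. A gene is called higher or lower where its adjusted p in a limma fit over all 6388 probes was under 0.01, and it is said to pass the fold threshold where it also changed by over 1.7-fold. The values are relative to the bulk of the probes on the array, and fewer cells carrying an mRNA cannot be told apart from less of it per cell. SSN3 was low in the double mutants, at -1.59 and -1.94 in rpb1-CTD11 cdk8Δ and -1.77 and -1.87 in rpb1-CTD12 cdk8Δ, against -0.09 to 0.04 in wild type. The strains also differed at loci outside RPB1 and CDK8. LYS2, a lysine synthesis gene that BY4742 lacks by its standard genotype, lay 2.33 to 3.45 above wild type on all 12 arrays of the truncation and double mutants and at 0.03 on both RPB1-CTDWT arrays. MET17, a methionine synthesis gene, lay between -5.06 and -4.50 on the 6 arrays of rpb1-CTD12, rpb1-CTD13 and rpb1-CTD20, at 0.86 and 1.11 in rpb1-CTD11, and between -0.47 and -0.13 in the double mutants. The part of these strain differences in the results was not tested. The α cell markers MF(ALPHA)1, MF(ALPHA)2, STE3 and SAG1 were detected on all 24 arrays, as in other MATα strains like BY4742, and all 4 were lower in rpb1-CTD11 than in wild type. Of 7 a cell markers, 1 was higher and 1 lower there, where 24.3% of all probes were higher and 24.9% lower. LEU2 and URA3, deleted in BY4742, were not called in any comparison.

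With 11 repeats, most amino acid synthesis genes were expressed above wild type. In rpb1-CTD11, 22 of the 37 genes rose and 4 fell, and the median log2 fold change was 0.24, against 0.00 over all 6388 probes. Among all probes 24.3% rose and 24.9% fell in this comparison. The 2 arrays of rpb1-CTD11 differed, with 27 of the 37 genes higher on array b than on array a. The median of the 37 was 0.31 without array a and 0.18 without array b. HIS4, HIS5, ASN2, TRP5 and ARO1 also passed the fold threshold, which 2.41% of all probes did in the upward direction. The genes that fell were HIS6, ARO2, ILV3 and ARO7. With the arrays centred on their medians instead of loess the counts were 14 higher and 4 lower, and with centring on spiked-in controls 11 and 0. Of all 6388 probes, 1181 rose and 1355 fell with median centring, and 551 and 393 with spiked-in controls. Asparagine (median 0.73, both genes higher), histidine (0.36, 4 of 7 higher and 1 lower) and threonine (0.31, 4 of 5 higher) had the largest pathway medians, and isoleucine (0.10) and proline (-0.01) the smallest. The median for the aromatic genes was 0.26, with 7 of 12 higher and 2 lower, and that for serine was 0.18, with 3 of 4 higher.

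**Figure D1:**
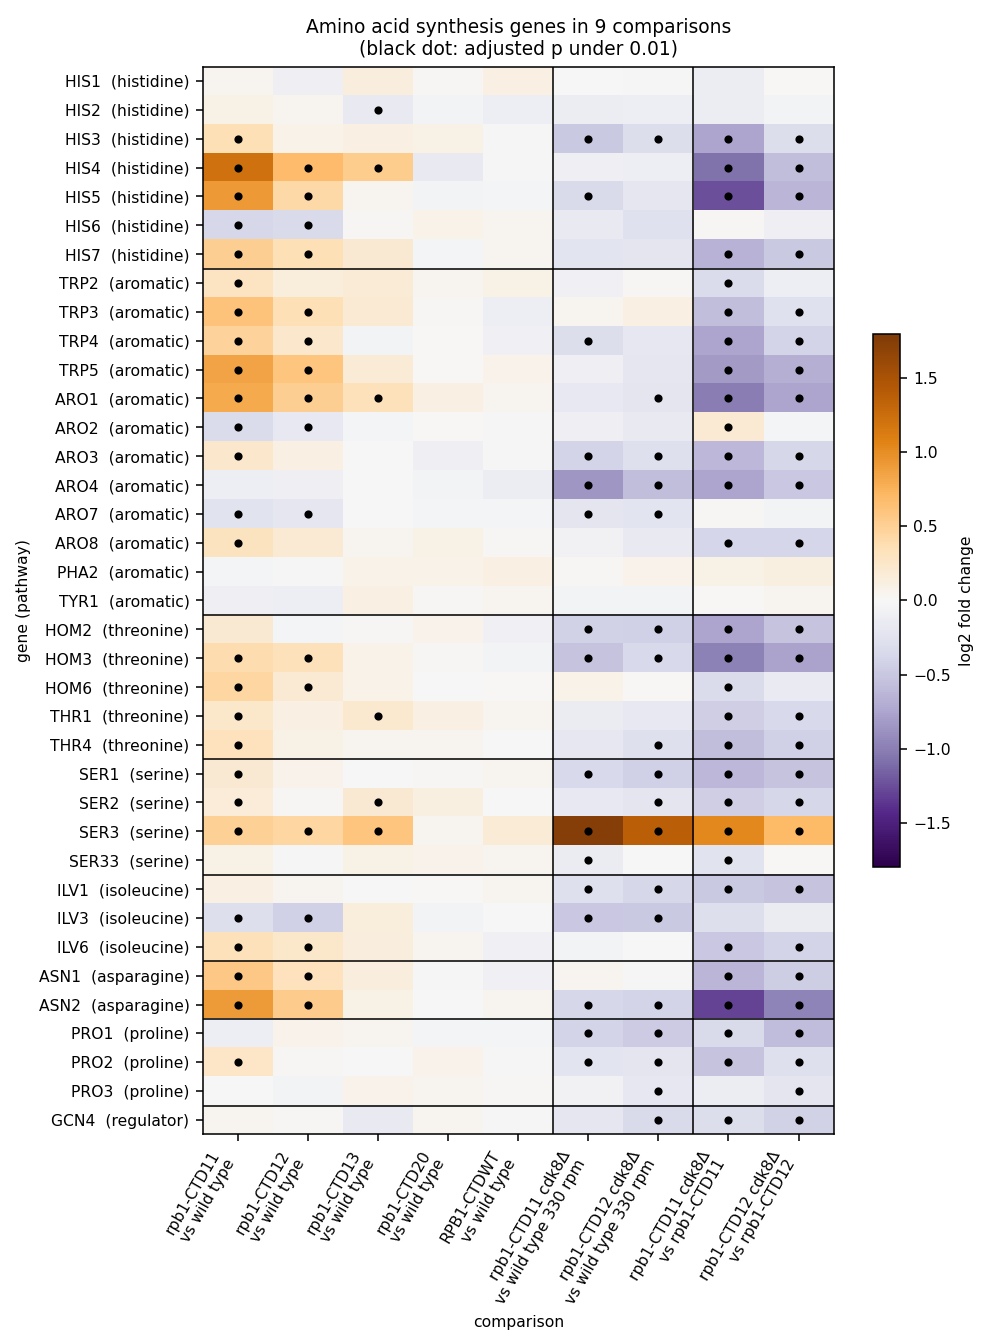
Log2 fold change (colour) of each of the 37 genes (rows, by pathway) in 9 comparisons (columns), with the mutant over its control; a black dot marks adjusted p under 0.01. Orange predominates in the rpb1-CTD11 column (22 genes higher) and purple in the column of rpb1-CTD11 cdk8Δ against rpb1-CTD11 (27 genes lower), with SER3 orange in both.

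Among the histidine genes, HIS4, which encodes an enzyme with 3 activities of the pathway, showed the largest rise. Its values were 1.06 and 1.36 in rpb1-CTD11 on arrays a and b, against a lowest, median and highest of -0.23, 0.00 and 0.21 in wild type. This was a 2.32-fold difference (log2 1.21, SE 0.087, adjusted p = 1.16e-09). HIS5, the histidinol-phosphate aminotransferase, stood at 0.83 and 1.00 in rpb1-CTD11, against -0.12, 0.01 and 0.15 in wild type (1.89-fold, adjusted p = 3.73e-10). The groups did not overlap for either gene. HIS7, the imidazole glycerol phosphate synthase, rose by 0.51, while HIS1, which encodes the first enzyme of the pathway, measured 0.05 and HIS2, the phosphatase, 0.09, neither past the threshold. HIS6, the isomerase that acts before the HIS7 enzyme, was the exception among the histidine genes. It fell by 0.37, with -0.36 and -0.38 in rpb1-CTD11, against -0.15 to 0.10 in wild type. HIS3, the imidazoleglycerol-phosphate dehydratase, carries a partial deletion (his3Δ1) in BY4742 and was used as a marker in a set of the study's strains, so its probe need not report an intact gene. It measured 0.19 and 0.52 in rpb1-CTD11, against -0.07, 0.01 and 0.07 in wild type (log2 0.36, adjusted p = 2.75e-05).

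The aromatic genes were mixed, with 7 higher and 2 lower. ARO1, whose 5-activity protein carries out the central steps before chorismate, measured 0.69 and 0.92 in rpb1-CTD11, against -0.11, 0.02 and 0.07 in wild type (log2 0.80, SE 0.048, adjusted p = 9.36e-11). TRP5, tryptophan synthase, measured 0.82 and 0.88 in rpb1-CTD11, against -0.07, 0.01 and 0.08 in wild type (log2 0.85, adjusted p = 1.45e-10). Both genes lay above every wild type array. The other tryptophan genes rose too, by 0.62 for TRP3, 0.47 for TRP4 and 0.29 for TRP2. ARO8, an aromatic aminotransferase, rose by 0.30. Of the isoenzymes that open the pathway, ARO3 rose by 0.23, whereas ARO4 measured -0.25 and 0.04 in rpb1-CTD11, against -0.08, 0.00 and 0.08 in wild type, and did not pass the threshold (adjusted p = 0.103). Not all genes of the pathway rose. ARO2, chorismate synthase, fell by 0.33 and ARO7, chorismate mutase, fell by 0.25, while PHA2 (-0.04) and TYR1 (-0.09), the prephenate dehydratase and dehydrogenase, did not pass the threshold.

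In the route to threonine, HOM6, the homoserine dehydrogenase, measured 0.45 and 0.43 in rpb1-CTD11, against -0.05, 0.00 and 0.05 in wild type (log2 0.44, SE 0.043, adjusted p = 6.74e-08). HOM3, the aspartate kinase that opens the route, measured 0.29 and 0.48 in rpb1-CTD11, against -0.04, 0.00 and 0.04 in wild type (log2 0.39, adjusted p = 1.09e-07). THR4 (0.31) and THR1 (0.24), the last enzymes, also rose, and HOM2 at 0.21 did not pass the threshold. No gene of this route fell, and all but HOM2 rose.

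ASN2, an asparagine synthetase, gave nearly equal values on its 2 arrays. It measured 0.91 and 0.90 in rpb1-CTD11, against -0.02, 0.00 and 0.03 in wild type (log2 0.91, SE 0.029, 1.88-fold, adjusted p = 2.88e-14). Its close copy ASN1 rose by 0.56, and cross-hybridisation between copies this alike was not tested, here or for SER3 and SER33. In the branched-chain group, ILV6, the regulatory subunit of acetolactate synthase, measured 0.33 and 0.32 in rpb1-CTD11, against -0.03, 0.00 and 0.04 in wild type (log2 0.32, adjusted p = 6.02e-06). ILV3, dihydroxyacid dehydratase, went the other way and fell by 0.29, and ILV1, threonine deaminase, measured 0.10 with no call. PRO2, the glutamyl phosphate reductase, measured 0.17 and 0.36 in rpb1-CTD11, against -0.02, -0.01 and 0.03 in wild type (log2 0.26, adjusted p = 7.66e-05). PRO1 (-0.10) and PRO3 (-0.01), the other proline enzymes, did not pass the threshold. Of the serine genes, SER1 (0.21) and SER2 (0.16) rose, and SER33 (0.10) was not called.

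The number of genes called fell as the tail lengthened. In rpb1-CTD12, 13 genes rose and 4 fell (median 0.08), against 18.6% and 17.4% of all probes, and no gene passed the fold threshold. Without array b of rpb1-CTD12 the median was 0.038. With spiked-in controls 5 rose and 0 fell with 12 repeats, and without a dye term 8 and 0. Of all 6388 probes, 356 rose and 134 fell with spiked-in controls, and 498 and 343 without a dye term. In rpb1-CTD13, 5 rose and 1 fell (median 0.07), against 1.52% and 4.34% of all probes. HIS4 (0.53), ARO1 (0.33), THR1 (0.22), SER2 (0.20) and SER3 (0.60) were the genes that rose with 13 repeats, and HIS2 fell by 0.16. When the arrays were instead centred on their spiked-in control spots, the median of all probes in rpb1-CTD13 moved to -0.42. Of the 37 genes 0 were then higher and 19 lower, with their median at -0.35, while 3 of all 6388 probes were higher and 5215 lower. Relative to that shift the genes stayed slightly above the other probes. In rpb1-CTD20, 0 of the 37 genes were called in either direction (0.172% of all probes rose and 0.204% fell), with 2 at an unadjusted p under 0.05. In RPB1-CTDWT 0 were called (0.0157% of all probes rose and 0.125% fell), with 3 at an unadjusted p under 0.05. Log2 fold changes ran from -0.16 to 0.12 in rpb1-CTD20 and from -0.12 to 0.17 in RPB1-CTDWT. These comparisons share the wild type arrays. The strains also differed in more than tail length. MET17 measured 0.86 and 1.11 in rpb1-CTD11 but -5.06 to -4.50 in rpb1-CTD12, rpb1-CTD13 and rpb1-CTD20. LYS2 was high in all 4 truncations but not in RPB1-CTDWT. The part of these differences in the counts was not tested.

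Levels by tail length are given here for the genes past the fold threshold in rpb1-CTD11. These genes were picked for being high there, so lower values in the longer tails are favoured by that choice. HIS4 measured 0.71 and 0.66 with 12 repeats, 0.49 and 0.57 with 13, -0.19 and -0.13 with 20 and -0.03 and -0.02 with the full tail of RPB1-CTDWT. ASN2 measured 0.55 and 0.53 with 12 repeats, 0.10 and 0.08 with 13, and between -0.04 and 0.07 in rpb1-CTD20 and RPB1-CTDWT. With 13 repeats HIS4 lay above the wild type arrays, a call that was lost when either rpb1-CTD13 array was left out, and ASN2 was not called (log2 0.09, adjusted p = 0.041). HIS5 measured 0.36 and 0.47 with 12 repeats and 0.09 and -0.01 with 13. TRP5 measured 0.52 and 0.68 with 12 repeats and 0.18 and 0.17 with 13. ARO1 stood at 0.45 and 0.57 with 12 repeats, 0.29 and 0.37 with 13 and 0.10 and 0.12 with 20. Not every gene was lower in the longer tails. SER3 measured 0.65 and 0.33 with 11 repeats and 0.62 and 0.57 with 13.

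**Figure D2:**
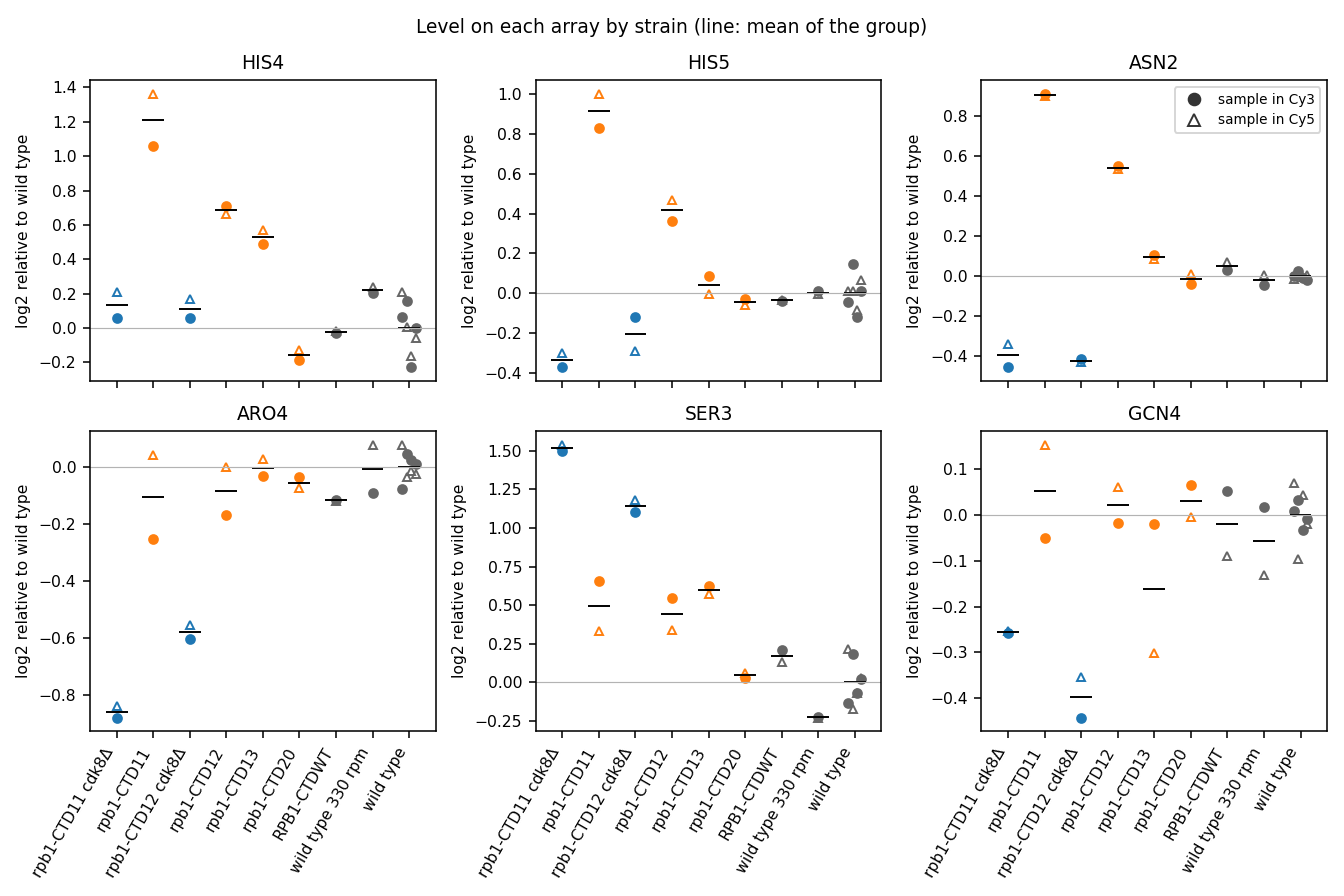
Log2 level of 6 genes on each of the 24 arrays, relative to the wild type arrays of the same dye (vertical axis), by strain (horizontal axis); filled circles are samples in Cy3, open triangles samples in Cy5, and lines are group means. HIS4, HIS5 and ASN2 stand highest in rpb1-CTD11 (means 1.21, 0.92 and 0.91), whereas SER3 stands highest in rpb1-CTD11 cdk8Δ (1.50 and 1.54).

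Strains of neighbouring tail lengths were also compared directly. Between rpb1-CTD11 and rpb1-CTD12, 6 genes were higher and 0 lower with 11 repeats (median 0.14), against 4.20% and 3.57% of all probes. At an unadjusted p under 0.05 the counts were 18 higher and 2 lower, given here without the counts over all probes. The 6 genes were HIS4 (0.52), HIS5 (0.50), ASN2 (0.37), ARO1 (0.30), HOM6 (0.25) and PRO2 (0.24). This count depended on single arrays, with 11 genes higher (median 0.22) without array a of rpb1-CTD11 and 2 (median 0.077) without its array b. It was 2 with median centring, 1 without a dye term and 0 with spiked-in controls. Of all 6388 probes, 111, 49 and 7 were higher under these settings. Between rpb1-CTD12 and rpb1-CTD13, 5 genes were higher (HIS2, HIS5, TRP5, HOM3 and ASN2) and 4 lower (HIS6, ARO7, TYR1 and ILV3) with 12 repeats, against 14.0% and 9.82% of all probes. rpb1-CTD11 and rpb1-CTD12 also differed in MET17, by 5.76.

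In the double mutants, SER3 was the only one of the 37 genes called higher than in wild type, and 15 or 17 genes were lower. The double mutants are set against wild type 330 rpm, the control that the study's table of expression values pairs with them. In rpb1-CTD11 cdk8Δ, 15 genes were lower and 1 higher than in that control (median -0.17), against 13.2% and 15.2% of all probes. In rpb1-CTD12 cdk8Δ, 17 were lower and 1 higher (median -0.21), against 11.2% and 15.6% of all probes. With centring on the spiked-in controls the lower counts were 3 and 1, and without a dye term 5 and 5. Of all 6388 probes, 222 and 139 were lower with spiked-in controls, and 343 and 256 without a dye term. Leaving out any single array of a double mutant or of wild type 330 rpm gave 9 to 10 lower with 11 repeats and 9 to 12 with 12. Of the 22 genes that were higher in rpb1-CTD11 than in wild type, 1 was higher, 8 were lower and 13 were not called in rpb1-CTD11 cdk8Δ, and their median was -0.17 in rpb1-CTD11 cdk8Δ and 0.41 in rpb1-CTD11. For the 13 genes that were higher in rpb1-CTD12, the counts in rpb1-CTD12 cdk8Δ were 1, 3 and 9, with medians of -0.19 in rpb1-CTD12 cdk8Δ and 0.36 in rpb1-CTD12. These pairs of comparisons share no arrays. The genes were picked for being high in the single mutants, however, so lower medians elsewhere are favoured by that choice. Over all 37 genes the single mutant medians were 0.24 with 11 repeats and 0.08 with 12.

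Against their own single mutants the drop was broad. In rpb1-CTD11 cdk8Δ, 27 of the 37 genes were lower and 2 higher than in rpb1-CTD11 (median -0.48), whereas 18.9% of all probes were lower and 19.7% higher. In rpb1-CTD12 cdk8Δ, 25 were lower and 1 higher than in rpb1-CTD12 (median -0.37), whereas 14.9% of all probes were lower and 17.5% higher. With 11 repeats, HIS4, HIS5, TRP5, ARO1, HOM3 and ASN2 fell past the fold threshold, as 2.29% of all probes did. With 12 repeats only ASN2 did so among the 37. All 5 threonine genes, both asparagine genes and 8 of 12 aromatic genes were lower with 11 repeats. HIS1, HIS2, HIS6, ARO7, PHA2, TYR1, ILV3 and PRO3 were the 8 genes not called there. rpb1-CTD12 cdk8Δ and rpb1-CTD12 also differed in MET17, by 4.39, and rpb1-CTD11 cdk8Δ and rpb1-CTD11 by -1.16, and the part of that difference was not tested. With the difference between the 2 wild type groups subtracted, 25 genes were lower with 11 repeats and 17 with 12, given here without the counts over all probes. With centring on the spiked-in controls the counts were 14 and 4, while 277 and 149 of all 6388 probes were lower.

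ASN2 measured -0.46 and -0.34 in rpb1-CTD11 cdk8Δ, against the 0.91 and 0.90 of rpb1-CTD11, a 2.47-fold lower level (log2 -1.30, SE 0.037, adjusted p = 4.1e-15). It measured -0.42 and -0.43 in rpb1-CTD12 cdk8Δ, 1.95-fold below rpb1-CTD12 (log2 -0.97, adjusted p = 1.44e-12). In wild type 330 rpm it measured -0.05 and 0.00, so that both double mutants lay below wild type as well. HIS5 measured -0.37 and -0.30 in rpb1-CTD11 cdk8Δ and -0.12 and -0.29 in rpb1-CTD12 cdk8Δ, against 0.01 and 0.00 in wild type 330 rpm. It was 2.38-fold below rpb1-CTD11 with 11 repeats (log2 -1.25, adjusted p = 2.21e-10) and 1.54-fold below rpb1-CTD12 with 12 (log2 -0.62, adjusted p = 3.43e-06). HIS4 behaved differently relative to wild type. It measured 0.06 and 0.21 in rpb1-CTD11 cdk8Δ and 0.06 and 0.17 in rpb1-CTD12 cdk8Δ, against 0.21 and 0.24 in wild type 330 rpm, with no call in either double mutant (adjusted p = 0.571 and 0.464).

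Another group of genes was lower in the double mutants without having been higher in the single mutants. ARO4, the DAHP synthase that rpb1-CTD11 left uncalled, measured -0.88 and -0.84 in rpb1-CTD11 cdk8Δ and -0.60 and -0.55 in rpb1-CTD12 cdk8Δ, against -0.09 and 0.08 in wild type 330 rpm. With 11 repeats it passed the fold threshold (1.8-fold lower, log2 -0.85, adjusted p = 1.68e-08). HOM2, ILV1 and PRO1 were likewise not called in either single mutant and were lower in rpb1-CTD11 cdk8Δ (-0.41, -0.27 and -0.41) and in rpb1-CTD12 cdk8Δ (-0.43, -0.38 and -0.48). HOM3, which had risen in both single mutants, measured -0.63 and -0.56 in rpb1-CTD11 cdk8Δ and -0.44 and -0.42 in rpb1-CTD12 cdk8Δ, against -0.07 and -0.08 in wild type 330 rpm. HIS3 measured -0.41 and -0.37 in rpb1-CTD11 cdk8Δ and -0.18 and -0.26 in rpb1-CTD12 cdk8Δ, against 0.06 and 0.11 in wild type 330 rpm. ARO1, TRP5, HOM6, ILV6 and PRO2 lay between -0.33 and 0.14 on the 4 double mutant arrays, against -0.19 to 0.19 in wild type 330 rpm.

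**Figure D3:**
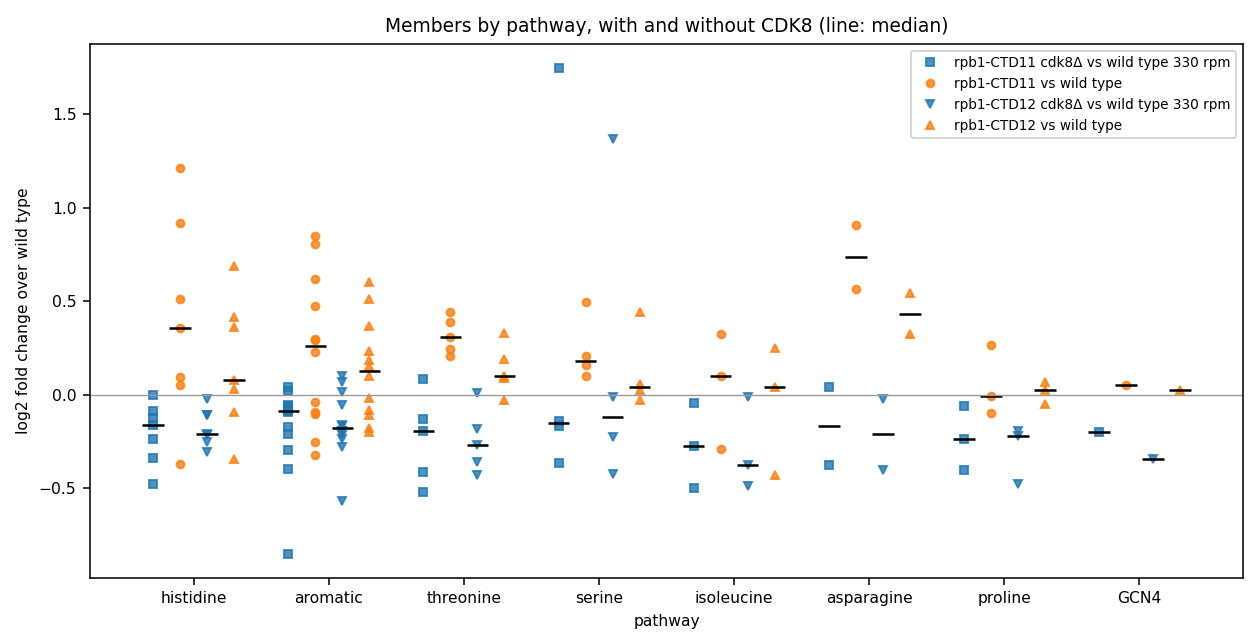
Log2 fold change over the matching wild type group (vertical axis) of the 37 genes by pathway (horizontal axis), for the double mutants (blue, squares with 11 and down triangles with 12 repeats) and the single mutants (orange, circles with 11 and up triangles with 12 repeats); black lines are medians. The blue medians lie below the orange ones in each pathway, and the blue points above 1 are SER3 (1.75 and 1.37).

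Whether the response to CDK8 loss differed between 11 and 12 repeats was tested as a difference of differences. The fall was steeper with 11 repeats for HIS5 (log2 -0.63, 95% interval -0.86 to -0.40, adjusted p = 0.00182) and ASN2 (-0.34, -0.45 to -0.23, adjusted p = 0.000633). The other 35 genes were not called, against 2.29% of all probes called in either direction. At an unadjusted p under 0.05, 14 of the 37 were steeper with 11 repeats, given here without the count over all probes. HIS4 (-0.50, adjusted p = 0.0582) and HIS3 (-0.45, adjusted p = 0.0124) had larger differences than ASN2 but wider errors. Neither call held with median centring, with spiked-in controls or without a dye term, and that of HIS5 was also lost without array a of rpb1-CTD11 cdk8Δ, of rpb1-CTD12 cdk8Δ or of rpb1-CTD12. MET17 differed in this test as well, by -5.55.

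**Figure D4:**
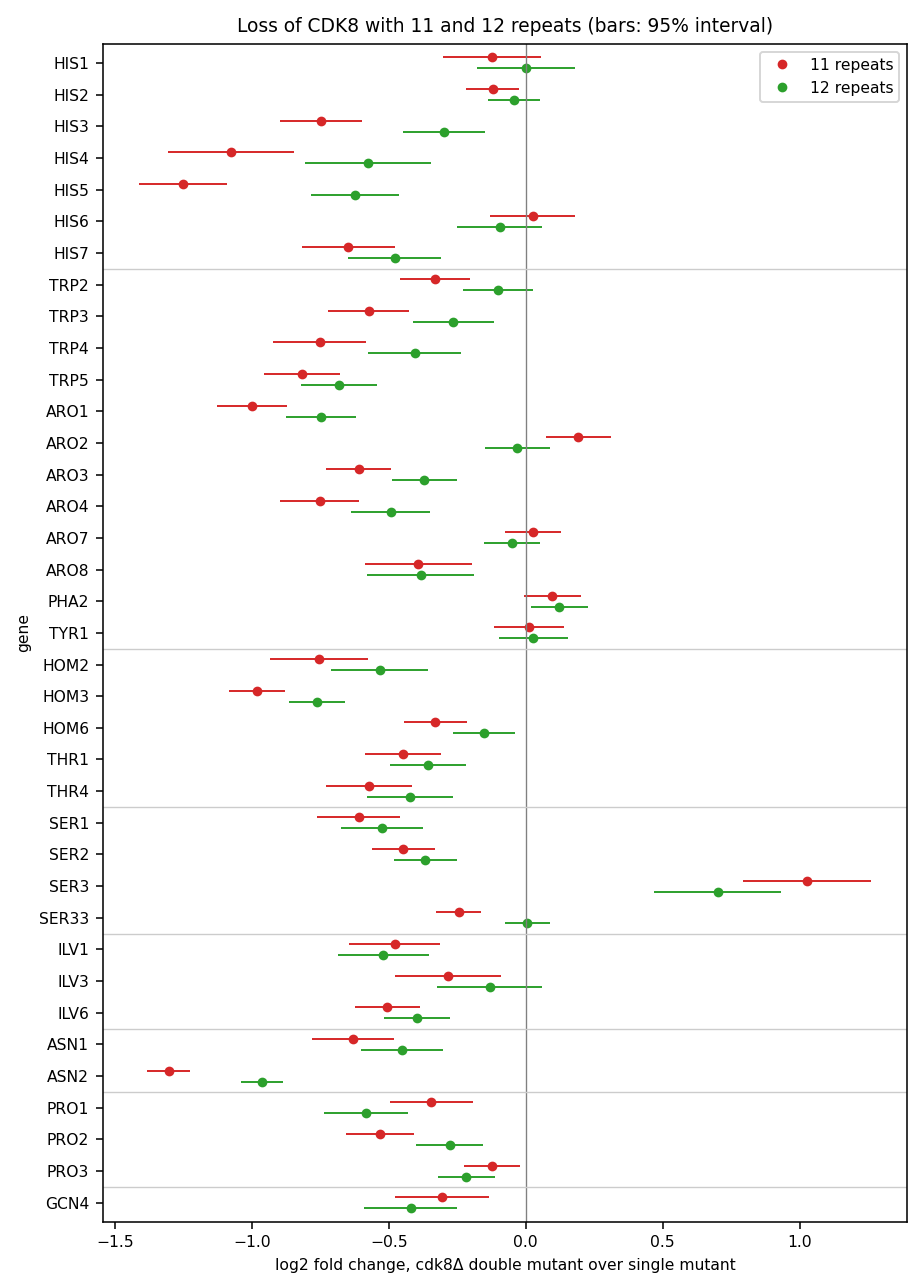
Log2 fold change of each cdk8Δ double mutant over its single mutant (horizontal axis) for the 37 genes (vertical axis), in red with 11 and in green with 12 repeats; bars are 95% intervals. The points of most genes lie left of 0 (medians -0.48 and -0.37), with SER3 on the right at 1.03 and 0.70.

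SER3 was the gene that rose in both backgrounds on loss of CDK8. It encodes 3-phosphoglycerate dehydrogenase, the first enzyme of serine synthesis, and is known to be held down in rich medium by transcription of a noncoding RNA through its promoter. SER3 measured 1.50 and 1.54 in rpb1-CTD11 cdk8Δ and 1.11 and 1.18 in rpb1-CTD12 cdk8Δ, against -0.22 and -0.23 in wild type 330 rpm. The differences were 3.35-fold (log2 1.75, SE 0.111, adjusted p = 9.54e-10) and 2.58-fold (log2 1.37, adjusted p = 2.59e-08). It was already higher in the single mutants, with 0.65 and 0.33 with 11 repeats, 0.55 and 0.34 with 12 and 0.62 and 0.57 with 13, against -0.17, -0.02 and 0.22 in wild type. The double mutants exceeded their single mutants by 1.03 with 11 repeats (adjusted p = 3.99e-07) and 0.70 with 12 (adjusted p = 5.55e-05). Neither of these calls held without a dye term. Its copy SER33 fell in rpb1-CTD11 cdk8Δ by 0.25 relative to rpb1-CTD11 and was not called with 12 repeats (adjusted p = 0.932). Against RPB1-CTDWT, in which SER3 measured 0.21 and 0.13, its rise in the 3 single mutants no longer passed the threshold, and with 11 repeats it also did not without array a of rpb1-CTD11 (0.34).

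Genes of amino acid breakdown were set beside SER3. CHA1, the catabolic serine and threonine deaminase that serine induces, was lower by 1.53 on the log2 scale in rpb1-CTD11 cdk8Δ and by 1.24 in rpb1-CTD12 cdk8Δ than in wild type 330 rpm. GCV2, a subunit of the glycine cleavage complex, fell by 1.16 and 0.90 in the same comparisons. Over the 9 breakdown genes listed, 6 were lower and 0 higher in each double mutant, whereas 13.2% of all probes were lower with 11 repeats and 11.2% with 12. Wild type 330 rpm itself had 3 of the 9 higher and 0 lower than wild type (median 0.24), against 2.46% and 2.00% of all probes. CHA1 stood at 0.42 and GCV2 at 0.14 there, neither called. Against their own single mutants 5 were lower and 2 higher with 11 repeats, where 18.9% and 19.7% of all probes were. With 12 repeats 3 were lower and 0 higher, against 14.9% and 17.5% of all probes. CHA1 fell by 1.41 with 11 repeats and by 0.79 with 12. In the single mutants the breakdown genes showed 3 higher and 1 lower with 11 repeats (24.3% and 24.9% of all probes). With 12 repeats 1 was higher and 1 lower (18.6% and 17.4%), and CHA1 itself was not called in either (0.30 and -0.02). With 13 repeats 4 were lower, CHA1 by 0.75, and 0 higher, against 4.34% and 1.52% of all probes.

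GCN4 mRNA did not move with the listed synthesis genes in the single mutants. It measured -0.05 and 0.15 in rpb1-CTD11 and -0.02 and 0.06 in rpb1-CTD12, against -0.10, 0.00 and 0.07 in wild type. The difference was 0.05 with 11 repeats (95% interval -0.08 to 0.19, adjusted p = 0.504) and 0.02 with 12 (-0.11 to 0.16, adjusted p = 0.798), and the sign of both turned with print-tip loess, with median centring and without array b of the mutant. With CDK8 deleted, GCN4 mRNA measured -0.26 and -0.25 in rpb1-CTD11 cdk8Δ and -0.44 and -0.35 in rpb1-CTD12 cdk8Δ, against 0.02 and -0.13 in wild type 330 rpm. It was lower than in rpb1-CTD11 by 0.31 (adjusted p = 0.00423) and lower than in rpb1-CTD12 by 0.42 (adjusted p = 0.0004), while the difference from wild type 330 rpm was -0.34 for rpb1-CTD12 cdk8Δ (adjusted p = 0.00273) and -0.20, not called, for rpb1-CTD11 cdk8Δ (adjusted p = 0.0598). With 11 repeats the call against rpb1-CTD11 was lost in 9 of the alternatives, print-tip loess and median centring among them, with values from -0.43 to -0.18 over all of them. rpb1-CTD13 (-0.02 and -0.30), rpb1-CTD20 (0.07 and 0.00) and RPB1-CTDWT (0.05 and -0.09) showed no call.

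Genes that act on the production and destruction of Gcn4 were counted beside GCN4. Of 12 genes of the translational control of GCN4, 7 were lower and 0 higher in rpb1-CTD11 than in wild type (median -0.17), where 24.9% of all probes were lower and 24.3% higher, among them GCN1 (-0.31) and GCN20 (-0.28), which help activate Gcn2, and the eIF2B subunit gene GCD7 (-0.38). The kinase gene GCN2 was not called (0.13). In rpb1-CTD12, 3 of the 12 were lower and 0 higher (17.4% and 18.6% of all probes). In the double mutants 2 were lower with 11 repeats (13.2% of all probes) and 4 with 12 (11.2%), and GCN1 was higher than in the single mutants by 0.36 and 0.21. Of 8 genes of Gcn4 turnover, 6 were higher and 1 lower in rpb1-CTD11 (24.3% and 24.9% of all probes), with CDC53 (0.85), a scaffold of the SCF ubiquitin ligase, and the kinase gene PHO85 (0.45) among the higher and SSN3 (-0.32) the lower. PCL5, the cyclin that directs Pho85 to Gcn4 and is itself a Gcn4 target, rose by 0.57 in rpb1-CTD11 and 0.44 in rpb1-CTD12. It was higher in rpb1-CTD12 cdk8Δ than in wild type 330 rpm by 0.73, and at 0.48 was not called in rpb1-CTD11 cdk8Δ.

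Arginine and lysine synthesis, other pathways known for regulation by Gcn4, were set beside the 37 genes. Of 5 arginine genes measured, 4 rose in rpb1-CTD11 (median 0.92), where 24.3% of all probes rose, including ARG1 (1.44), argininosuccinate synthetase, ARG3 (0.96) and CPA1 (0.92). In rpb1-CTD11 cdk8Δ, 2 of the 5 arginine genes were higher and 1 lower than in wild type 330 rpm (median 0.57). In rpb1-CTD12 cdk8Δ, 3 were higher and 1 lower (median 0.67). Of all probes 15.2% were higher and 13.2% lower with 11 repeats, and 15.6% and 11.2% with 12. Unlike most of the 37, ARG3 remained high in both double mutants relative to wild type 330 rpm, at 1.20 and 1.35. CPA1, a subunit of the arginine-specific carbamoyl phosphate synthetase, fell by 1.45 on deletion of CDK8 with 11 repeats. Of 6 lysine genes, 4 rose in rpb1-CTD11 against wild type (median 0.49), where 24.3% of all probes rose, with LYS1 at 1.32. LYS1 fell by 1.36 in rpb1-CTD11 cdk8Δ relative to rpb1-CTD11. Against wild type 330 rpm, 2 of the 6 lysine genes were higher and 0 lower in each double mutant (medians 0.03 with 11 and 0.05 with 12 repeats). LYS20 was 0.86 higher in rpb1-CTD11 and 0.87 and 0.86 higher in the double mutants, and LYS9 was higher in all 4 truncations, also with 20 repeats (0.39). The truncation strains were also those with high LYS2, and its part was not tested.

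Enzymes adjoining the same pathways were counted separately. Of 8 such genes, 0 were higher and 2 lower in rpb1-CTD11 than in wild type (24.3% and 24.9% of all probes), and 0 higher and 3 lower in rpb1-CTD12 (18.6% and 17.4%). In each double mutant 1 was higher and 4 were lower than in wild type 330 rpm. Of all probes 15.2% were higher and 13.2% lower with 11 repeats, and 15.6% and 11.2% with 12. SHM2, the cytoplasmic serine hydroxymethyltransferase, was among the lower (-1.16 with 11 and -1.14 with 12 repeats). TRP1, the tryptophan gene known to lack regulation by Gcn4, measured -0.03 in rpb1-CTD11 and was higher by 0.39 and 0.35 in the double mutants than in wild type 330 rpm. BAT1, the mitochondrial branched-chain aminotransferase, fell by 0.83 in rpb1-CTD11 and 0.75 in rpb1-CTD12. ILV2 and ILV5, the branched-chain enzymes before ILV3, were not called in either single mutant and fell by 0.32 and 0.70 in rpb1-CTD11 cdk8Δ. Among 9 amino acid permease genes, 3 rose and 3 fell in rpb1-CTD11, close to the 24.3% and 24.9% of all probes that did. PUT4, the proline permease, was 1.45 and 1.52 higher in rpb1-CTD11 cdk8Δ and rpb1-CTD12 cdk8Δ than in wild type 330 rpm, and GAP1, the general permease, was 0.50 and 0.57 higher.

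The wild type groups were also compared with each other. Wild type 330 rpm against wild type gave 0 calls among the 37, against 2.46% of all probes higher and 2.00% lower, with 7 genes at an unadjusted p under 0.05 and log2 fold changes from -0.23 (SER3) to 0.22 (HIS4). With wild type in place of wild type 330 rpm as the control, 23 genes were lower in rpb1-CTD11 cdk8Δ and 22 in rpb1-CTD12 cdk8Δ. The counts with wild type 330 rpm were 15 and 17, so they depended on the control.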

How the data were processed

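Total RNA of 24 yeast cultures was hybridised with a common wild type reference on two-colour oligonucleotide arrays of 15552 spots in 48 print blocks, 12776 of them for 6388 gene probes spotted in duplicate. The deposited scanner tables hold the mean signal and median background intensity of each spot, extracted by the authors with Imagene. The deposited series table holds log2 ratios that the authors normalized by print-tip loess (span 0.4) with no background subtraction and a correction of gene-specific dye bias, and its array medians lie between -0.00938 and 0.0158. It served as an alternative. It correlated with the scanner ratios at r = 0.378 to 0.874, and its sign follows the same dyes. The authors' table of averaged log2 ratios and p-values (made with limma 2.12.0, per the submitters' processing notes) was not used.

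Intensities were background corrected (normexp, offset 50) and log2 ratios of sample over reference were normalized by global loess (span 0.3, control spots at weight 0) with limma 3.58.1 in R 4.3.3. Duplicate spots were averaged. One model was fitted to all arrays, with a coefficient per group and a dye term, and Benjamini-Hochberg adjustment ran over the p-values of all 6388 probes. The dyes were taken from the labels, whose order is opposite to the design text. The 28 pairs of wild type arrays correlated at r = -0.736 to 0.774 over all probes, -0.278 to 0.774 within a k label and -0.736 to 0.359 between labels, as ratios of wild type over wild type. The dye equals the replicate letter of a strain, so the dye term is also a block for the letter. Differences between the Cy5 and Cy3 arrays of a strain correlated between strains at r = 0.621 to 0.937 (median 0.850, 36 pairs). The number of arrays limits the precision, and p-values measure the spread between arrays.

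The members and lists were chosen with earlier results of these data known. Values on each array are given for GCN4, for HIS3, for the gene of each pathway with the lowest p in rpb1-CTD11 against wild type and in rpb1-CTD11 cdk8Δ against rpb1-CTD11, and for every gene past the fold threshold in any comparison. The array values of HIS6 were chosen after they were seen. All 37 genes matched RefSeq's gene table by symbol. ARG5,6 of the arginine list was not analysed here. Which of the study's 2 sets of truncation strains, 1 of them LYS2+ met15Δ0, was arrayed is not given in the sources used here. MET15 is another name of MET17. On the arrays, rpb1-CTD12, rpb1-CTD13 and rpb1-CTD20 had the high LYS2 and low MET17 of a LYS2+ met15Δ0 strain. rpb1-CTD11 and the double mutants had high LYS2 without that low MET17, so the arrayed truncations did not share a single genotype. The script was tested on simulated data. The alternatives covered background correction, normalization (print-tip loess, median centring, spiked-in controls, the deposited table), the dye term, dim probes, the k label as a random block (correlation 0.362), single arrays or k labels left out, and the control group.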

Additional observations from a re-analysis of the deposited data

Results flagged for a closer look

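The response to loss of CDK8 differed between the truncations for HIS5 and ASN2. HIS5 was lower in rpb1-CTD11 cdk8Δ than in rpb1-CTD11 by more than in the pair with 12 repeats, with a difference of -0.63 between the log2 fold changes (adjusted p = 0.00182, limma, Benjamini-Hochberg). For ASN2 the difference was -0.34 (adjusted p = 0.000633). The direction held in all alternatives run, with -0.72 to -0.53 for HIS5 and -0.57 to -0.28 for ASN2. Neither call held with median centring, with spiked-in controls or without a dye term, and that of HIS5 was also lost without some single arrays. MET17 differed by -5.55 in the same test, and its part was not tested. No sample stood apart from the other wild type arrays in any of the 37 genes.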

How the results depend on the processing

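Counts of calls among the 37 genes moved most with the normalization. With median centring, the genes higher were 14 in rpb1-CTD11, 2 in rpb1-CTD13, 2 in rpb1-CTD11 against rpb1-CTD12 and 1 in rpb1-CTD12 against rpb1-CTD13. Lower there were 0 with 13 repeats and 11 in rpb1-CTD12 cdk8Δ against wild type 330 rpm. Over all 6388 probes these counts were, in order, 1181, 37, 111 and 501 higher, and 129 and 467 lower. With spiked-in controls, 11 were higher and 0 lower in rpb1-CTD11, 5 and 0 with 12 repeats, and 0 and 19 with 13 repeats. Between neighbouring lengths, 18 were higher and 0 lower in rpb1-CTD12 against rpb1-CTD13, and 0 were higher in rpb1-CTD11 against rpb1-CTD12. Of all 6388 probes, 3 were higher and 5215 lower with 13 repeats, and 2497 and 11 in rpb1-CTD12 against rpb1-CTD13. Under that scaling 3 and 1 genes were lower in rpb1-CTD11 cdk8Δ and rpb1-CTD12 cdk8Δ against wild type 330 rpm, 14 were lower and 1 higher in rpb1-CTD11 cdk8Δ against rpb1-CTD11, and 4 were lower in rpb1-CTD12 cdk8Δ against rpb1-CTD12. The median of all probes moved by over 0.1 there in rpb1-CTD13 (-0.42, the 37 genes -0.35), rpb1-CTD20 (-0.21, the 37 genes -0.19), wild type 330 rpm (0.13, the 37 genes 0.10) and rpb1-CTD12 against rpb1-CTD13 (0.44, the 37 genes 0.48), among the comparisons with wild type and between neighbouring lengths. Without the replicate block, which is the dye term, 2 genes were lower in rpb1-CTD11 (743 of all 6388 probes). In rpb1-CTD12 8 were higher and 0 lower (498 and 343 of all probes), and in rpb1-CTD13 2 and 0 (20 and 71). Between neighbouring lengths, 1 was higher in rpb1-CTD11 against rpb1-CTD12 (49 of all probes). In rpb1-CTD12 against rpb1-CTD13, 1 was higher and 0 lower (296 and 105). Without the block 5 were lower in each double mutant against wild type 330 rpm, 0 were higher in either against its single mutant, and 14 were lower in rpb1-CTD12 cdk8Δ against rpb1-CTD12. The difference in the response to CDK8 loss gave 0 calls with median centring, spiked-in controls or no block. The block changed no other count by over 1.5 times.

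With wild type 330 rpm as the control, 2 genes were lower in rpb1-CTD11 and 2 in rpb1-CTD12, and with wild type as the control 23 were lower in rpb1-CTD11 cdk8Δ. With RPB1-CTDWT as the control, 2 were lower with 12 repeats, and 2 were higher and 0 lower with 13. Counts over all probes with these controls are not given here. With the k label as a random block, 3 were higher and 0 lower in rpb1-CTD13, as without the k1 arrays (3 and 0), and without k2 0 were lower. With no background correction, with print-tip loess and adjusted for the controls, 1 gene was higher in rpb1-CTD11 cdk8Δ against rpb1-CTD11.

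Leaving out single arrays gave 1 to 6 genes for the difference in response to CDK8 loss, 1 to 2 higher in rpb1-CTD11 cdk8Δ against rpb1-CTD11, and 9 to 10 and 9 to 12 lower in rpb1-CTD11 cdk8Δ and rpb1-CTD12 cdk8Δ against wild type 330 rpm. It gave 2 to 11 higher and 0 to 1 lower in rpb1-CTD11 against rpb1-CTD12, 2 to 5 higher and 1 to 2 lower in rpb1-CTD12 against rpb1-CTD13, 2 to 4 higher and 0 to 1 lower in rpb1-CTD13, and 1 to 4 lower in rpb1-CTD12. GCN4 lay between -0.072 and 0.17 in rpb1-CTD11 and between -0.032 and 0.078 in rpb1-CTD12. A lone array is then assumed to vary like the other groups.

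Of 1003 values of single genes recomputed, 829 kept direction and side of the threshold, 164 no longer passed it and 10 reversed. The reversals were ARO1 in rpb1-CTD13 with spiked-in controls (-0.096), HOM6 in rpb1-CTD12 with median centring (-0.0076) and the deposited table (-0.071), HOM6 in rpb1-CTD11 cdk8Δ against rpb1-CTD11 with the deposited table (0.10), and GCN4 in rpb1-CTD11 and rpb1-CTD12 with print-tip loess (-0.011 and -0.033), median centring (-0.11 and -0.13) and without array b of the mutant (-0.072 and -0.032). Their cause was not tested. With 2 arrays a strain, small differences such as those of GCN4 cannot be resolved.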
